A study of Mus musculus with 9 samples.

Results

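The genes described here are 10 transcription regulators of the red cell and megakaryocyte branches of blood formation: Gata1, Gata2, Klf1, Tal1, Lyl1, Lmo2, Nfe2, Gfi1b, Zfpm1 and Fli1. They were measured in mouse LSK cells, a bone marrow fraction without lineage markers that carries Sca-1 and Kit and holds stem cells and multipotent progenitors. The members were chosen by name, and a probe was assigned to a member where its RefSeq accession led to that symbol. All 10 members were found, on 11 probes, and all 10 were among the 13120 named genes tested. The scanning software calls each spot well above background or not, and a gene is called detected here where its probe had that call. Of the 10 members 9 were detected on all 9 arrays, and Klf1 on all but that of empty vector replicate 2.

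The cells came from C57BL/6 mice and had received a GFP-labelled vector, which was empty in the first group, carried wild-type DNMT3A (WT) in the second and carried DNMT3A R882H in the third. DNMT3A is an enzyme that methylates cytosines not methylated before, and its substitution R882H recurs in acute myeloid leukaemia. All groups shared the transduction, the transplantation and the sorting of the cells afterwards, and each had 3 arrays. The total RNA that went into the amplification of cDNA was 3.67 ng per sample. The labels name no deletion of the mouse gene in any group. The age of the mice, the promoter that drives the transgene and the time between transplantation and sorting are not given in the sources used here, and the labels do not say that replicates came from separate animals. The spread that the p-values below rest on is thus one between samples and may be technical.

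GATA1 and GATA2 are zinc finger proteins that bind GATA sites in DNA. GATA2 serves stem cells and early progenitors, and GATA1 takes over its sites as red cells and megakaryocytes mature. TAL1, also called SCL, binds DNA with an E protein and is joined to GATA factors by LMO2 and LDB1, while LYL1 is its close relative. ZFPM1, also called FOG1, is the GATA1 cofactor. KLF1 drives red cell genes, FLI1 and NFE2 serve megakaryocyte and platelet genes, and GFI1B is a repressor needed in both branches.

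The starts of the genes are shown because the transduced enzyme acts on CpG dinucleotides and because several of these regulators bind the regulatory regions of each other. RefSeq windows of 300 bases, from 250 before to 50 after a transcription start on build GRCm38.p6, were at hand for 7 of the 10 members, 9 windows in all. Those of 5 members follow, read 5′ to 3′ on the strand of the gene, with matches to a GATA motif in capitals. The motif searched was GATA with A or T directly before it and A or G directly after it, on both strands.
Gata1, chrX:7967861-7968160, minus strand: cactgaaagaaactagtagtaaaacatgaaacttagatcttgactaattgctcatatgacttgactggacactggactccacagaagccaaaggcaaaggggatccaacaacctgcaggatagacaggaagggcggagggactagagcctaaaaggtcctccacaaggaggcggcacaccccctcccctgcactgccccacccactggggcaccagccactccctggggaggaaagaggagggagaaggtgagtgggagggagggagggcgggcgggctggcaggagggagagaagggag
Gata2, chr6:88193641-88193940, plus strand: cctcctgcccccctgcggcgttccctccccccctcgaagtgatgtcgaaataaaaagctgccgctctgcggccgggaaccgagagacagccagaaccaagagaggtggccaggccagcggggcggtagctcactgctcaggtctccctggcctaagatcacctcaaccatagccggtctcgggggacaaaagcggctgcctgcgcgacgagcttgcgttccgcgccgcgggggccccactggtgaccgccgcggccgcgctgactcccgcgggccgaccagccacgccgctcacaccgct
Tal1, chr4:115056176-115056475, plus strand: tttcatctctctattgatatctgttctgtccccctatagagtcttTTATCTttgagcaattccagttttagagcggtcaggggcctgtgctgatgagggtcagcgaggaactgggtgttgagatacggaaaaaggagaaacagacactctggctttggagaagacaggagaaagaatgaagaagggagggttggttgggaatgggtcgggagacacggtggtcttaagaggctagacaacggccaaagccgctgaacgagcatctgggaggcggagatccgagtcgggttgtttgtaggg
Gfi1b, chr2:28621933-28622232, minus strand: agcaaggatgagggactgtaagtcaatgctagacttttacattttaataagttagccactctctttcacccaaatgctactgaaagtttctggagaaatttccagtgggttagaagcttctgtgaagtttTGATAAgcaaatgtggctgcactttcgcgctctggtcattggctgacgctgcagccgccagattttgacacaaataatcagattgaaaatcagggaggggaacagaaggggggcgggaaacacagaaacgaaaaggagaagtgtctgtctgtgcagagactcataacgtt
Klf1, chr8:84901732-84902031, plus strand: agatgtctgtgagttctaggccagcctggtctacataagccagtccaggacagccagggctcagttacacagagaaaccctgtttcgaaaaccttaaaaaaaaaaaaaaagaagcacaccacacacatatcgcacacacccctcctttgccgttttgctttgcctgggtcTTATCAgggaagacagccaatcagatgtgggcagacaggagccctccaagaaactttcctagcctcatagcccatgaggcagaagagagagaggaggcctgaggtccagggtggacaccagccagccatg
A match was present in 3 of the 9 member windows, starting at -80 relative to the start of Klf1, at -205 in the window shown for Tal1 and at -120 for Gfi1b. Of the 32851 windows in the table, 29.8% held at least 1 match, so a match in a window of this length is common. The windows of Gata1 and Klf1 held 4 and 3 CpG dinucleotides, against a median of 7 over all windows. The window shown for Gata2 held 32, its second window 29, and that of Zfpm1 37. The arrays measured RNA, so methylation and binding at these windows were not measured.

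Against empty vector, Gata1, Gata2 and Tal1 were the members with the clearest separation on the brightest probe per gene. Each lay higher with R882H on every array. No gene of the 13120 passed an adjusted p under 0.05 with limma in this comparison (0%), so none of the following differences is called. Gata1 stood at 2.78, 2.10 and 1.18 with empty vector, at 2.53, 3.01 and 2.25 with WT, and at 3.43, 3.23 and 2.87 with R882H, in the order of replicates 1 to 3. Here and below a level is a log2 signal from which the 75th percentile of its array was subtracted. All R882H arrays lay above all empty vector arrays, and the WT arrays lay across the upper part of the empty vector range and the lower part of the R882H range. The difference between R882H and empty vector was 1.16 ± 0.38 log2 units (SE, 2.23-fold, 95% confidence interval 0.29 to 2.03), with a limma p of 0.0148 and an adjusted p of 0.521.

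Tal1 showed the same order of groups. Its level was 1.76, 1.77 and 0.85 with empty vector, 2.16, 2.12 and 1.68 with WT, and 2.40, 2.63 and 1.97 with R882H. The lowest R882H array, replicate 3, lay above the highest empty vector array and below 2 of the WT arrays. R882H exceeded empty vector by 0.87 ± 0.29 log2 units (SE, 1.83-fold), with a limma p of 0.0157 and an adjusted p of 0.521. Gata2 differed from both in its order, since its WT arrays did not lie above those of empty vector. They stood at 3.57, 3.58 and 3.08, beside 3.96, 3.64 and 3.07 with empty vector and 4.24, 4.13 and 4.19 with R882H. The R882H arrays lay close together, with an SD of 0.06 against 0.45 and 0.29 in the other groups, and lay above every other array. The difference from empty vector was 0.63 ± 0.24 (SE, 1.55-fold), with a limma p of 0.0296 and an adjusted p of 0.521.

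**Figure D1:**
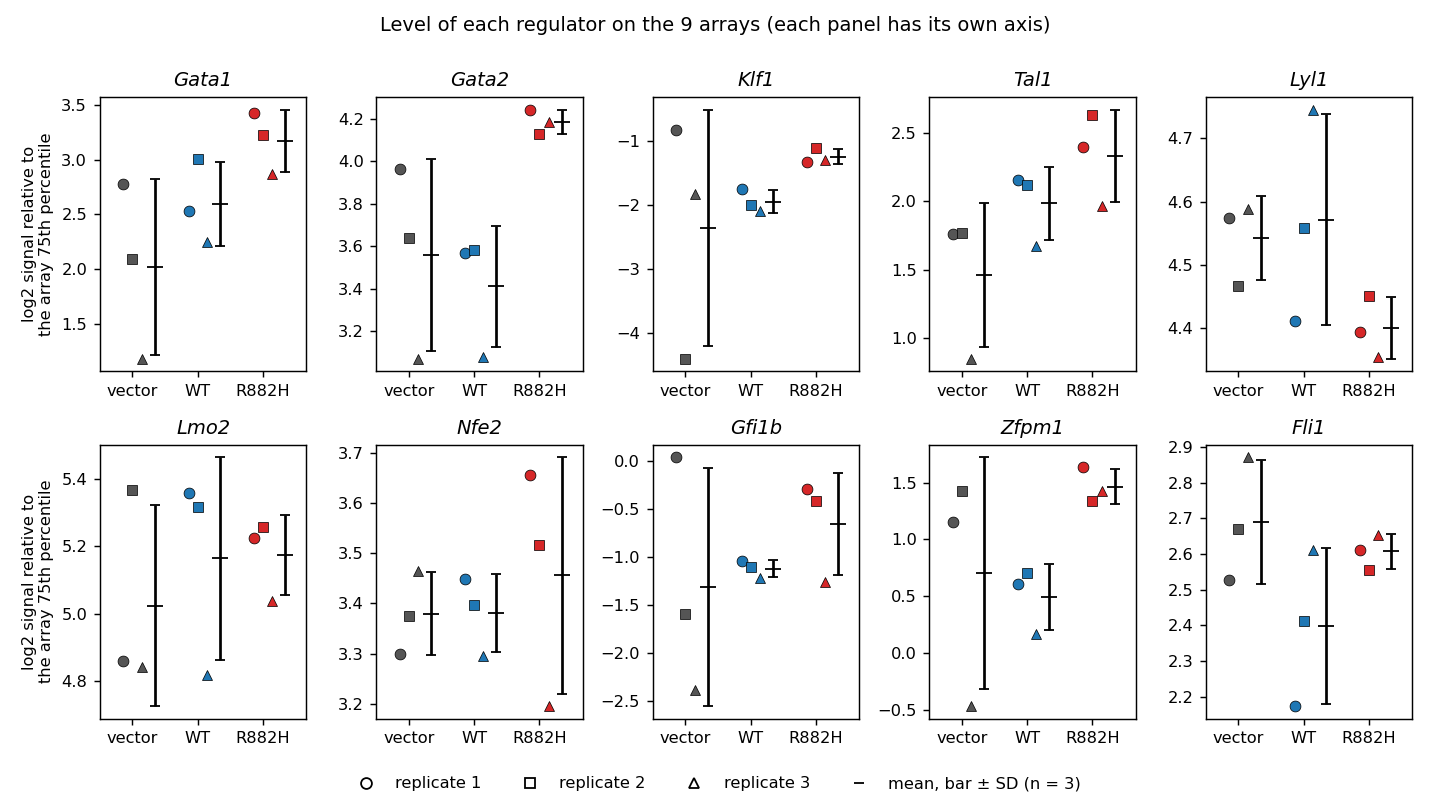
Log2 signal minus the 75th percentile of the array for each of the 10 regulators (vertical axis, own scale in each panel) in the 3 groups (horizontal axis); points are single arrays, with replicates 1, 2 and 3 as circle, square and triangle, and bars show the mean ± SD (n = 3). The R882H arrays of Gata2 sit between 4.13 and 4.24, above all 6 other arrays, while the empty vector arrays of Klf1 reach from -4.40 to -0.83 and enclose both other groups.

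On the brightest probe per gene, the GATA1 cofactor and the 2 dimmer lineage factors had empty vector arrays too far apart to place. Zfpm1 stood at 1.15, 1.42 and -0.47 with empty vector, at 0.61, 0.71 and 0.17 with WT, and at 1.64, 1.33 and 1.42 with R882H. The R882H arrays lay close together near the top of the empty vector range, and empty vector replicate 3 lay below all other arrays. The difference of R882H from empty vector was 0.76 ± 0.43 (SE, limma adjusted p = 0.585), and it was 0.18 without empty vector replicate 3. A second, dimmer Zfpm1 probe read 0.93, 0.46 and -0.79 with empty vector, 0.50, 0.52 and -0.07 with WT and 1.57, 1.22 and 1.23 with R882H. On that probe the R882H arrays did not overlap with either group, and the difference from empty vector was 1.14 ± 0.40 (SE).

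Klf1 stood at -0.83, -4.40 and -1.83 with empty vector, at -1.75, -2.01 and -2.09 with WT, and at -1.33, -1.12 and -1.30 with R882H. Empty vector replicate 1 was the highest of all 9 arrays and replicate 2, not detected, the lowest. The R882H difference from empty vector, 1.11 ± 0.73 (SE, limma adjusted p = 0.623), became 0.08 without replicate 2 of that group and 1.87 without replicate 1. Gfi1b was likewise highest in empty vector replicate 1, at 0.04, and stood at -1.60 and -2.39 in replicates 2 and 3. It stood at -1.05, -1.11 and -1.22 with WT and at -0.29, -0.41 and -1.27 with R882H. The R882H arrays lay within the empty vector range, and the difference was 0.66 ± 0.54 (SE, limma adjusted p = 0.679), which was 0.12 without empty vector replicate 3 and 1.34 without replicate 1.

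The remaining 4 members, Lmo2, Lyl1, Nfe2 and Fli1, stood within 0.15 log2 units of empty vector on average. Lmo2, the bridging protein, stood at 4.86, 5.37 and 4.84 with empty vector, at 5.36, 5.32 and 4.82 with WT and at 5.22, 5.26 and 5.04 with R882H, and all groups overlapped. Nfe2 stood at 3.30, 3.38 and 3.46, at 3.45, 3.40 and 3.30, and at 3.66, 3.52 and 3.20 in the same order, again with all groups overlapping. The R882H differences from empty vector were 0.15 ± 0.21 and 0.08 ± 0.16 (SE), with 95% confidence intervals of -0.33 to 0.63 and -0.29 to 0.44. Both changed sign when arrays were scaled to their median, to -0.01 and -0.08. Lyl1 stood at 4.57, 4.47 and 4.59 with empty vector and at 4.39, 4.45 and 4.35 with R882H, where all arrays lay lower, by -0.14 ± 0.14 (SE, limma adjusted p = 0.730). WT arrays of Lyl1 spanned both groups at 4.41, 4.56 and 4.75. Fli1 stood at 2.53, 2.67 and 2.87 with empty vector, at 2.17, 2.41 and 2.61 with WT, and at 2.61, 2.56 and 2.65 with R882H. Its R882H arrays lay inside the empty vector range, with a difference of -0.08 ± 0.16 (SE, 95% confidence interval -0.46 to 0.29) that was 0.00 with quantile normalization.

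In total 8 of the 10 members were higher with R882H than with empty vector, with 6 of 10 when arrays were scaled to their median and 9 of 10 with quantile normalization. Among all genes tested 48% were higher. The members' median difference was 0.64 against -0.02 over all genes, and scaling to the array median moved the latter to -0.17 and the former to 0.49. An unadjusted limma p under 0.05 was reached by 3 of the 10 members, all higher, where 9.02% of all genes reached it in either direction, 5.56% on the higher and 3.47% on the lower side. Groups did not overlap for 3 members on the higher side (9.5% of all genes) and for Lyl1 on the lower side (8.77% of all genes). An unadjusted p under 0.05 was reached by 5 members without empty vector replicate 1, and by 1 when either empty vector replicate 3 or R882H replicate 2 was left out. The number of all genes with such a p also moved when single arrays were left out, as given in the closing section. These counts are thus not a result about the members alone. Without empty vector replicate 3 the differences of Gata1, Tal1 and Gata2 were 0.74, 0.57 and 0.38 and the members' median was 0.15, while that median was 0.91 without empty vector replicate 1 and 0.32 without number 3 in any group. In bulk RNA of sorted cells, fewer cells of a type and less RNA per cell cannot be told apart.

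The comparison of R882H with WT asks what the substitution adds to the expressed enzyme. It shares the R882H arrays with the comparison above, so the values are given side by side and are not independent. Again no gene passed with limma (0%). Gata2 had the smallest p of the members. All its R882H arrays lay above all WT arrays, and the difference was 0.78 ± 0.24 (SE, 1.71-fold, 95% confidence interval 0.23 to 1.33), with a limma p of 0.0111 and an adjusted p of 0.554, beside 0.63 against empty vector. Zfpm1 and Klf1 also had R882H arrays that all exceeded the WT arrays. The Zfpm1 difference was 0.97 ± 0.43 (SE, limma p of 0.0527, adjusted p of 0.626), and 1.02 ± 0.40 on the second probe. That of Klf1 was 0.70 ± 0.73 (SE, limma adjusted p = 0.806), where the SE is shared by all groups and carries the wide spread of empty vector.

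Gata1 and Tal1 exceeded WT by less than they exceeded empty vector, at 0.58 ± 0.38 and 0.35 ± 0.29 (SE), and the R882H and WT arrays overlapped. Gfi1b stood at 0.47 ± 0.54, Fli1 at 0.21 ± 0.16, Nfe2 at 0.08 ± 0.16, Lmo2 at 0.01 ± 0.21 and Lyl1 at -0.17 ± 0.14 (SE). Of the 10 members 9 were higher with R882H than with WT, with 7 of 10 when arrays were scaled to their median and 8 of 10 with normexp background correction, where 48.3% of all genes were higher. The members' median was 0.41 against -0.01 over all genes, with 0.31 and -0.11 after scaling to the array median. An unadjusted limma p under 0.05 was reached by Gata2 alone of the 10 members, where 8.01% of all genes reached it, 3.67% on the higher and 4.34% on the lower side. The number of members was 3 without empty vector replicate 2 and 2 without empty vector replicate 3, which enter here only through the shared spread. The number of all genes with such a p also moved when single arrays were left out. Groups did not overlap for Gata2, Zfpm1 and Klf1, all higher, as for 6.79% of all genes, and for no member on the lower side (8.62% of all genes).

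**Figure D2:**
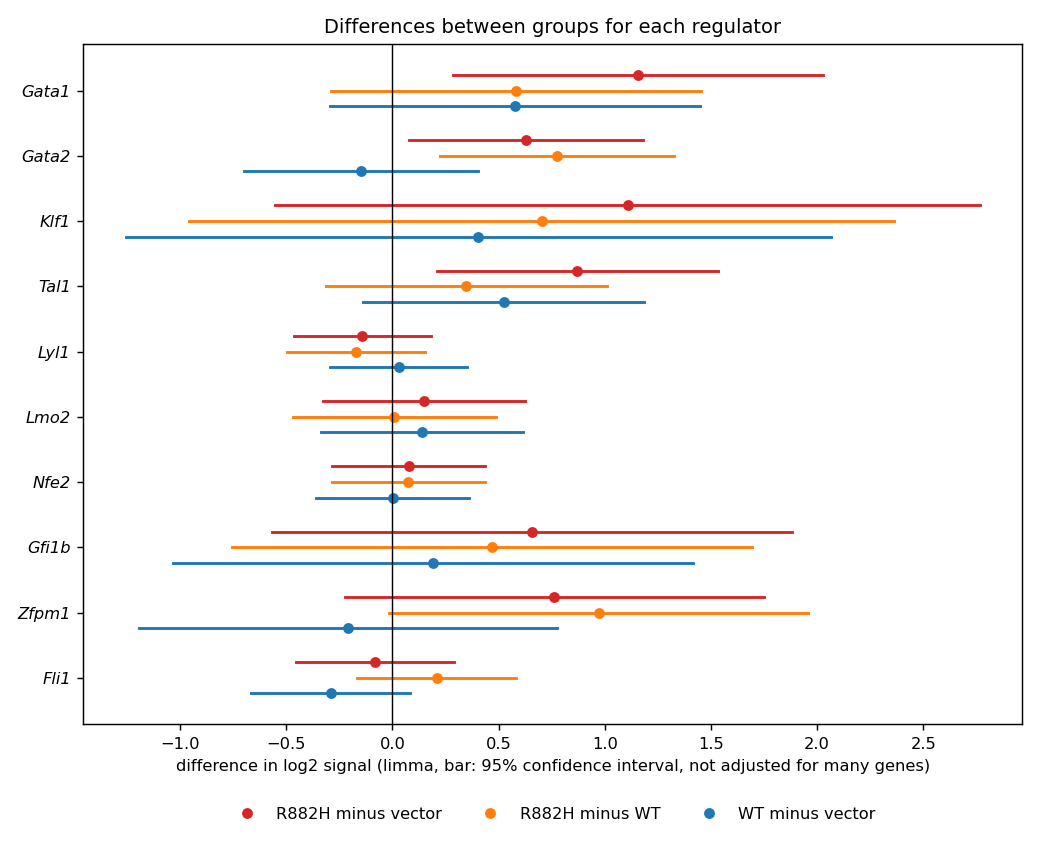
Difference in log2 signal between groups (horizontal axis) for each regulator (vertical axis), with R882H minus empty vector in red, R882H minus WT in orange and WT minus empty vector in blue; points are limma estimates and bars 95% confidence intervals, not adjusted for the number of genes. The interval lies above 0 for Gata1, Gata2 and Tal1 against empty vector and for Gata2 against WT, and holds 0 for all others; no difference passed the adjusted threshold.

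WT and empty vector cells, compared to ask what the unmutated enzyme does by itself, were closer. No gene passed with limma (0%), no member had an unadjusted p under 0.05 (5.95% of all genes had, 3.5% higher and 2.45% lower), and the arrays of both groups overlapped for all 10 members, where 5.69% of all genes were higher and 4.38% lower without overlap. Gata1 and Tal1 stood 0.58 ± 0.38 and 0.52 ± 0.29 log2 units higher with WT (SE, limma adjusted p = 0.875 for both), with 95% confidence intervals of -0.29 to 1.45 and -0.14 to 1.19. Without empty vector replicate 3 these differences were 0.16 and 0.22, and without empty vector replicate 1 that of Gata1 was 0.96, with a limma p of 0.0229 and an adjusted p of 0.824. With the replicate number as a block, which pairs these samples, Tal1 alone of the members had an unadjusted limma p under 0.05, at 0.0135, with an adjusted p of 0.547. Fli1 stood at -0.29 ± 0.16 (SE, limma p of 0.112, adjusted p of 0.875). Klf1, Gfi1b and Lmo2 stood at 0.40, 0.19 and 0.14, Lyl1 and Nfe2 at 0.03 and 0.00, and Gata2 and Zfpm1 at -0.15 and -0.21. Of these, Klf1 was -0.62 without empty vector replicate 2, Gfi1b -0.35 without empty vector replicate 3, and Zfpm1 0.15 without empty vector replicate 2. The members' median was 0.08 against 0.01 over all genes, and 7 of 10 were higher (5 of 10 when scaled to the array median or with normexp), beside 51.7% of all genes.

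The members also differed by replicate number. Replicate 3 was the lowest of its group for Gata1, Tal1, Lmo2 and Gfi1b in all 3 groups, and for Gata2 and Zfpm1 with empty vector and WT but not with R882H. For Gata1 it differed from the mean of the other arrays of its group by -1.26 log2 units with empty vector, -0.52 with WT and -0.46 with R882H. For Fli1 it lay above that mean, by 0.27, 0.32 and 0.07. Scores show the same by list, a score being the mean over genes of an array's deviation from the 9-array mean. The members scored 0.23, -0.30 and -0.57 with empty vector, -0.04, 0.01 and -0.25 with WT, and 0.41, 0.37 and 0.13 with R882H. A list of 18 myeloid genes linked to the transcription factors PU.1 and CEBP scored 0.11, -0.37 and 0.95, -0.15, -0.11 and 0.79, and -0.64, -0.73 and 0.14 in the same order. Replicate 3 thus scored lowest of its group on the members and highest on the myeloid genes in all 3 groups. The part of this difference between replicate numbers in the results was not tested, beyond the values without number 3 or without single arrays.

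**Figure D3:**
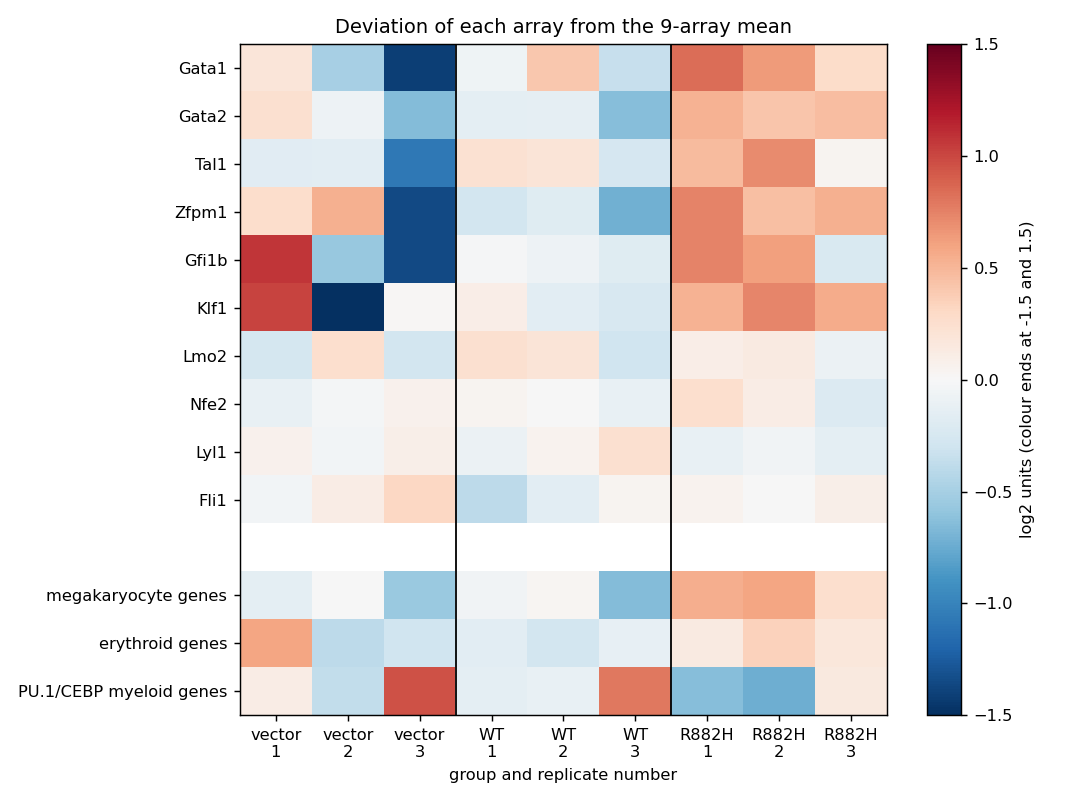
Deviation of each of the 9 arrays (columns, by group and replicate number) from the 9-array mean in log2 units (colour, blue lower and red higher, ending at -1.5 and 1.5), for the 10 regulators and for the mean over 26 megakaryocyte, 31 erythroid and 18 myeloid genes. Empty vector replicate 3 is low for Gata1, Gata2, Tal1, Zfpm1 and Gfi1b and scores 0.95 on the myeloid genes, and the R882H columns are higher for Gata1 and Gata2.

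Over the 9 arrays Gata1 followed Tal1 with a Pearson r of 0.92, Gfi1b with 0.84, Gata2 with 0.82 and Zfpm1 with 0.77. With the group means removed these were 0.83, 0.89, 0.91 and 0.81. Gata2 and Zfpm1 followed each other with 0.91, and 0.86 with group means removed. Fli1 ran the other way, with -0.46 against Gata1, and -0.66 with group means removed. These values describe 9 arrays that share scaling, 3 groups and the replicate numbers. Outside the members, the tested genes most like Gata1 were Gp5, a subunit of the platelet receptor for von Willebrand factor, with an r of 0.96, Myl9, a myosin light chain of platelets, with 0.96, then Slc22a17, Slc39a13 and Mov10, each with 0.95 or 0.94. Gp5 was detected on 1 empty vector, 1 WT and 3 R882H arrays, so it entered the test through R882H alone, the group in which Gata1 was also highest, and 4 of its 9 values were not detected. Most like Gata2 were Arap3 with 0.96, the thrombin receptor family gene F2rl2 and the focal adhesion gene Zyx with 0.95 each, and Tgm2 and Cyp3a59 with 0.94. Most like Fli1 were Slc16a3 with 0.93, Zfp703 with 0.92, and Cep192, Tmbim4 and Pigm with 0.91, 0.91 and 0.90.

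Slides divide the groups unevenly. All empty vector arrays and WT replicate 1 lay on 1 slide, WT replicates 2 and 3 with R882H replicates 1 and 2 on another, and R882H replicate 3 alone on the third. No slide held both empty vector and R882H, so for that comparison a slide difference is bridged by WT arrays alone. Within the slide of 2 WT and 2 R882H arrays, the R882H mean exceeded that of WT by 1.05 log2 units for Zfpm1 and 0.86 for Gata2. The difference was 0.83 for Klf1, 0.81 for Gfi1b, 0.70 for Gata1, 0.62 for Tal1 and 0.24 for Nfe2. The same split was not examined over all genes, so these differences are a description. Lmo2, Fli1 and Lyl1 stood at 0.17, 0.07 and -0.23 there. Within the other slide the single WT array differed from the empty vector mean by 0.70 for Tal1, where it lay above all 3, by 0.51 for Gata1, by 0.01 for Gata2 and by -0.52 for Fli1.

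The labels of the arrays also bear on these values. The authors' deposited value table has a column for each sample, and 7 of its 9 columns held the values of an array that the scanner output assigns to another sample, 4 of them of another group. All values here follow the scanner output. With the columns as named in the deposited table, the R882H difference from empty vector was 0.30 for Gata1, 0.07 for Gata2 and 0.19 for Tal1, and 0 members had an unadjusted limma p under 0.05. With the columns matched to the arrays by their values, 3 did. Which assignment is right was not tested, and every comparison of groups above rests on it.

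Gata1 was also set against 3 factors on the same array, since such a difference does not depend on the scaling of the array. The difference between Gata1 and Spi1, which encodes the myeloid factor PU.1 that opposes GATA1, was 0.78, 0.46 and -1.05 with empty vector, 0.96, 1.51 and 0.28 with WT, and 2.34, 2.29 and 1.25 with R882H. Every R882H array lay above every empty vector array, and WT lay between and overlapped both. The group means differed by 1.90 between R882H and empty vector and by 1.05 between R882H and WT, with exact two-sided permutation p-values of 0.1 and 0.2, where 0.1 is the smallest that 3 against 3 arrays can give. Gata1 minus Gata2 was -1.18, -1.54 and -1.89 with empty vector, -1.04, -0.58 and -0.83 with WT and -0.82, -0.90 and -1.32 with R882H. The WT arrays lay above all empty vector arrays (difference 0.72, exact permutation p of 0.1), and R882H overlapped both groups, at 0.53 from empty vector (p of 0.2) and -0.19 from WT (p of 0.5). Gata1 minus Fli1 had means of -0.67 ± 0.98, 0.20 ± 0.50 and 0.57 ± 0.31 (SD, n = 3), with exact permutation p-values of 0.2 for both comparisons with empty vector and 0.4 between R882H and WT. Adjusted over the 9 comparisons the p-values ran from 0.3 to 0.5. These show unequal differences of the paired genes and not which of them differs.

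**Figure D4:**
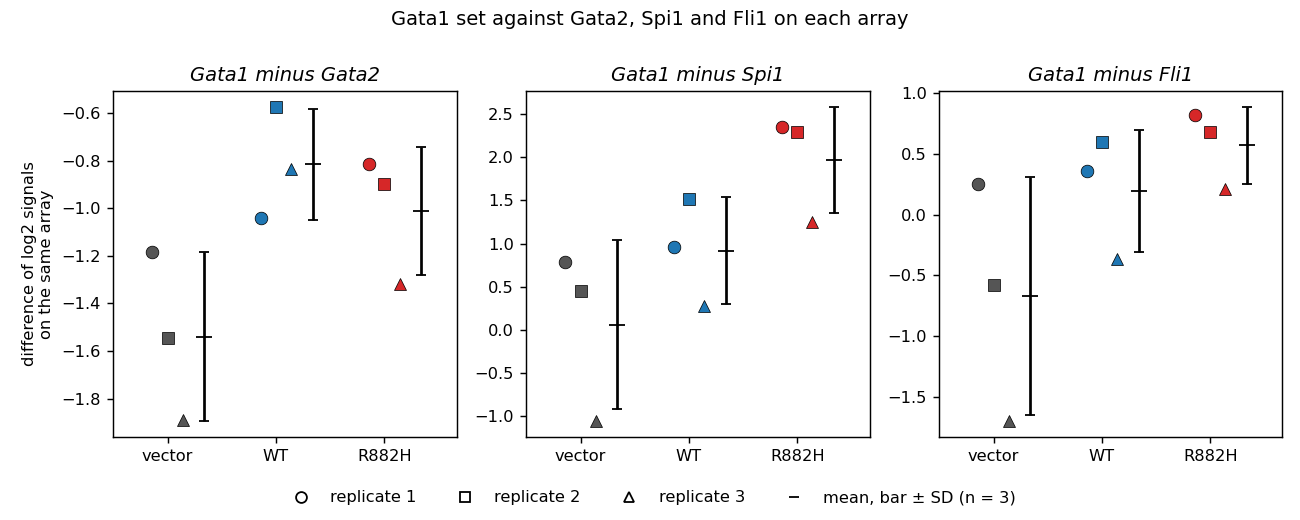
Difference of the log2 signals of Gata1 and, from left to right, Gata2, Spi1 and Fli1 on the same array (vertical axis, log2 units, own scale in each panel) by group (horizontal axis); points are arrays, with replicates 1, 2 and 3 as circle, square and triangle, and bars the mean ± SD (n = 3). For Spi1 the R882H arrays lie between 1.25 and 2.34, above the empty vector arrays at -1.05 to 0.78.

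The partners of these factors differed little in the median. Of 24 genes for the SCL complex and its cofactors, all detected on every array, 10 were higher with R882H than with empty vector, and the median was -0.04 (-0.02 over all genes). No partner had an unadjusted limma p under 0.05 in that comparison, where 9.02% of all genes had. R882H arrays lay all below those of empty vector for 4 of the 24, beside 8.77% of all genes. They lay all above for 0 of the 24, beside 9.5% of all genes. Against WT they lay all below for 2 and all above for 1, beside 8.62% and 6.79% of all genes. Those with the smallest p were the corepressor gene Rcor1 at -0.26 ± 0.15, the single-stranded DNA binding protein gene Ssbp3 at 0.44 ± 0.27, the chromatin remodeller gene Smarca4 at -0.22 ± 0.15 and the ETO2 corepressor gene Cbfa2t3 at 0.50 ± 0.38 (SE). Ldb1, which encodes the dimerising partner of LMO2, stood at 0.17 ± 0.21. Against WT the median was -0.02, and Myb, a progenitor transcription factor, had the smallest p, at -0.34 ± 0.15 (SE, limma adjusted p = 0.623). Mef2c, Lmo4 and Chd4 stood at 0.47, -0.33 and -0.35. Between WT and empty vector the median was -0.01, with Mef2c at -0.51, Tcf3 at -0.36, Hdac1 at -0.34 and Chd4 at 0.33. No partner passed with limma in any comparison.

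Most genes of the megakaryocyte programme, many of them GATA1, FLI1 or NFE2 targets, had a higher mean with R882H, and none was called. Of 26 tested genes of a list of 30, 23 were higher with R882H than with empty vector and 23 than with WT, with medians of 0.73 and 0.59. None passed the adjusted threshold with limma, where the smallest adjusted p in the list was 0.302 and 0.335. An unadjusted p under 0.05 on the higher side was reached by 9 and 10 of the 26, where 5.56% and 3.67% of all genes reached it, and on the lower side by 0. Gp5 is among the 9 and among the 23 of both comparisons. It was detected on all 3 arrays with R882H alone, so it entered the test through the group with its highest mean. In each comparison 11 had R882H arrays all above the other group, where 9.5% and 6.79% of all genes had. The list was chosen with results of these data known, so its counts are a description. Rab27b, a granule transport gene, stood at 0.31, 0.64 and 0.21 with empty vector, at 0.22, 0.73 and 0.38 with WT and at 1.35, 1.43 and 1.37 with R882H. The R882H arrays were nearly equal and lay above all others, by 0.995 ± 0.18 and 0.94 ± 0.18 (SE). The thrombin receptor gene F2r stood at 2.70, 3.05 and 2.58, at 2.60, 3.10 and 2.12, and at 3.75, 3.67 and 4.02, with R882H again above all others, by 1.04 ± 0.26 and 1.21 ± 0.26.

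The genes of platelet adhesion did not share 1 order of groups. Itgb3 stood 0.87 ± 0.17 higher with R882H and 0.51 ± 0.17 higher with WT than with empty vector, without overlap in either. Gp1ba stood 1.85 ± 0.44 and 1.62 ± 0.44 higher in the same comparisons, also without overlap, and R882H and WT overlapped. Gp9 and Vwf showed the other order. They stood 1.21 ± 0.30 and 2.41 ± 0.60 higher with R882H than with WT, without overlap, and 0.57 ± 0.30 and 1.35 ± 0.60 higher than with empty vector. WT stood below empty vector by -0.64 for Gp9 and -1.06 for Vwf. The NFE2 partner gene Mafk stood at -0.42 between WT and empty vector. Between those groups the list had a median of 0.00 and 13 of 26 genes higher (8 of 26 when scaled to the array median). The megakaryocyte score of replicate 3 was the lowest of its group in all 3 groups, at -0.56, -0.65 and 0.25, and the median against empty vector was 0.37 without empty vector replicate 3. The late platelet genes Ppbp, Tubb1, Gp6 and P2ry12 were detected on all 3 arrays in none of the groups and were not tested.

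**Figure D5:**
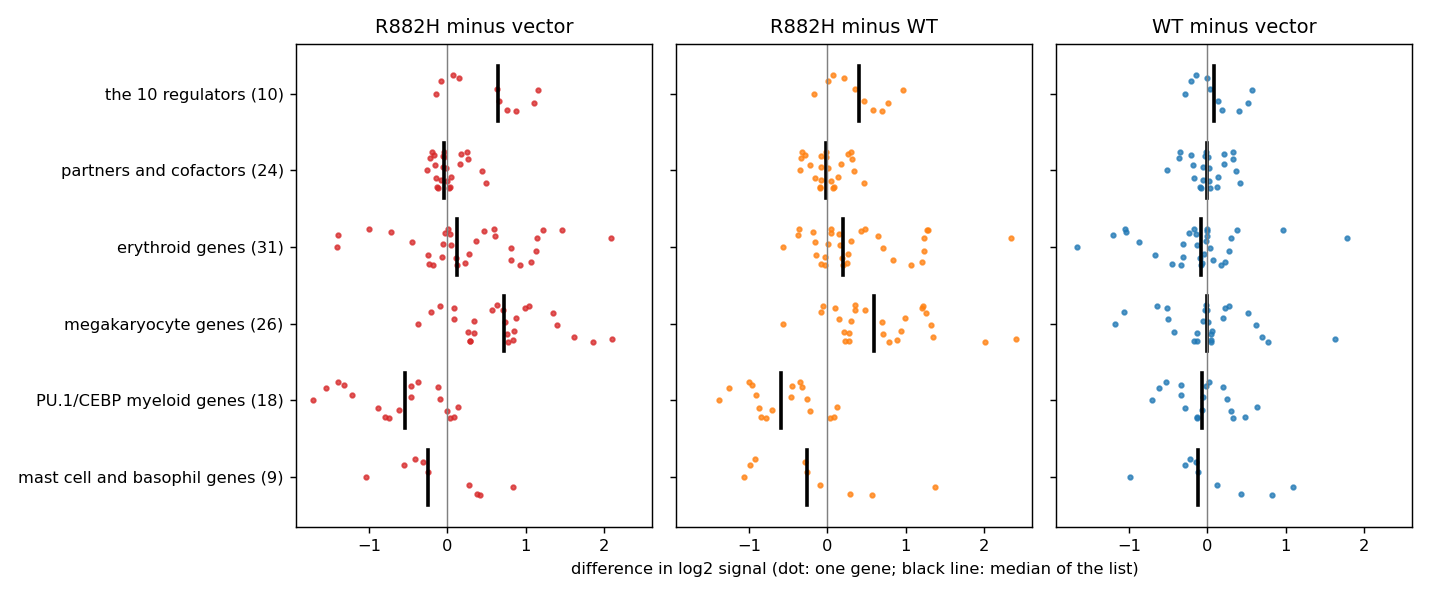
Difference in log2 signal between groups (horizontal axis; panels from left to right R882H minus empty vector, R882H minus WT and WT minus empty vector) for the genes of 6 lists (vertical axis, number of tested genes in brackets); dots are genes and black lines list medians. The megakaryocyte medians are 0.73, 0.59 and 0.00, the myeloid medians -0.54, -0.59 and -0.06, and the partner medians lie within 0.04 of 0.

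Erythroid genes were mixed. Of 39 listed genes 31 were tested, and 20 were higher with R882H than with empty vector (15 when scaled to the array median), with a median of 0.13 that was -0.03 under that scaling. An unadjusted limma p under 0.05 was reached by 8 on the higher and 3 on the lower side, beside 5.56% and 3.47% of all genes, with the smallest adjusted p at 0.351. The adult beta globin genes were lower: Hbb-bt stood at 3.22, 2.62 and 2.85 with empty vector, at 2.06, 1.30 and 2.22 with WT and at 1.09, 1.40 and 2.02 with R882H. All empty vector arrays lay above both other groups, and R882H differed from them by -1.39 ± 0.31 and WT by -1.03 ± 0.31 (SE). Hbb-b2 differed by -0.99 ± 0.30 and -1.04 ± 0.30 in the same comparisons, and Hbb-bs by -1.67 ± 0.81 between WT and empty vector. Beta globin genes are near copies of each other, so which copy a probe reads is uncertain. The haem synthesis genes Ppox and Uros stood 0.47 ± 0.14 and 0.60 ± 0.19 higher with R882H than with empty vector, and Uros 0.97 ± 0.19 higher with WT.

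Against WT, 22 of the 31 erythroid genes were higher with R882H, with a median of 0.20, and 6 had an unadjusted p under 0.05, all higher, beside 3.67% of all genes on that side. Add2, 1 of the 6 and of the 22, and Rhd, 1 of the 22, were detected on all 3 arrays with R882H alone. They thus entered the test through the group with their highest mean, also in the comparison with empty vector, where both were higher. Epor, the erythropoietin receptor gene, stood at -1.16, -0.81 and -1.04 with WT and at 0.01, 0.61 and 0.04 with R882H, without overlap, and differed by 1.23 ± 0.45 (SE, limma adjusted p = 0.555). With empty vector it stood at 0.19 in replicate 1 and at -1.49 and -1.70 in replicates 2 and 3, so that R882H overlapped through replicate 1. The membrane skeleton gene Ank1 and the water channel gene Aqp1 stood 0.84 ± 0.31 and 1.20 ± 0.42 higher than with WT, without overlap. Add2, another membrane skeleton gene, was at least 3.13-fold higher. It was detected on 0 of 3 WT arrays, and this bound sets the R882H mean over the mean, across WT arrays, of the lowest detected signal of the array or the probe's own where higher. The erythroid score was highest in empty vector replicate 1, at 0.59, and ran from -0.39 to 0.34 in the other 8 arrays. Without that array the median against empty vector was 0.44. The red cell membrane skeleton genes Epb42 and Sptb were detected on none of the 9 arrays.

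Most of the myeloid genes had a lower mean with R882H, and none was called. Of 18 tested genes 15 were lower than with empty vector and 15 than with WT, with medians of -0.54 and -0.59, beside -0.06 between WT and empty vector. With limma 1 and 2 had an unadjusted p under 0.05, all lower, beside 3.47% and 4.34% of all genes on that side. R882H arrays lay all below the other group for 1 and 2 of the 18, beside 8.77% and 8.62% of all genes, so that these counts stood near those of all genes. Spi1 stood at 2.00, 1.64 and 2.23 with empty vector, at 1.57, 1.49 and 1.97 with WT and at 1.09, 0.94 and 1.61 with R882H. R882H lay below empty vector on every array, by -0.74 ± 0.24 (SE, limma adjusted p = 0.505), and overlapped WT. The granule genes Mpo, Ctsg and Elane stood at -0.89 ± 0.40, -1.32 ± 0.62 and -1.72 ± 0.90 from empty vector, and Mpo and Ctsg at -0.91 ± 0.40 and -1.25 ± 0.62 from WT. Irf8 and Cebpa, factors of monocyte and granulocyte development, stood at -1.003 ± 0.32 and -0.71 ± 0.35 from WT. Between WT and empty vector Irf8, Cebpb, Lyz2 and Spi1 stood at 0.63, 0.48, 0.31 and -0.28. Without empty vector replicate 3 the median against empty vector was -0.29.

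Mast cells and basophils, which also depend on GATA factors, were examined through 13 genes, 9 of them tested. Against empty vector 4 of the 9 were higher with R882H, with a median of -0.24. The IgE receptor gamma chain gene Fcer1g and the basophil protease gene Mcpt8 stood at -0.55 ± 0.19 and -1.04 ± 0.41, and Il1rl1, the IL-33 receptor gene, and Mitf at 0.84 ± 0.32 and 0.28 ± 0.21. Against WT the median was -0.26, and Fcer1g differed by -0.98 ± 0.19 (SE, limma adjusted p = 0.335) and Cpa3, a mast cell carboxypeptidase gene, by -1.07 ± 0.32, both without overlap, while Mcpt8 stood at -0.92 and Mitf at 0.57. Between WT and empty vector Il1rl1 and Cpa3 stood 1.10 ± 0.32 and 0.83 ± 0.32 higher without overlap, with Fcer1g at 0.43 and Mitf at -0.29. The defining mast cell genes Fcer1a, Ms4a2 and Cma1 were detected on all 3 arrays in none of the groups.

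Markers of the sorted fraction were present. Kit, Ly6a, Cd34, Flt3, Procr and Cd48 were detected on all 9 arrays, and their list, with Slamf1, scored from -0.77 to 0.30 with empty vector, from -0.38 to 0.28 with WT and from 0.12 to 0.28 with R882H. Slamf1 was detected on 2 empty vector, 1 WT and 3 R882H arrays. It thus entered this score through R882H alone, the group with its highest mean, and its undetected values count in the scores of the other groups. Of 11 lineage markers that the gate should remove, 5 were tested, scoring from -0.33 to -0.24, -0.38 to 0.22 and 0.09 to 0.43 in the same order. These scores are deviations and do not show the level. Itgam, 1 of the 5, was detected on all 9 arrays at 7.43 to 7.81, above Kit and Ly6a on every array. Nkg7 also lay above Kit on every array, and Cd3e, Cd4 and Cd79a lay below it. Whether the gate removed the cells with these markers was not tested. The B cell receptor gene Cd79a was at least 5.41-fold higher with R882H than with empty vector, where it was detected on 0 of 3 arrays. Of 14 genes of endothelial, stromal and macrophage cells 10 were tested, scoring from -0.13 to 0.08, -0.23 to -0.08 and -0.20 to 0.51. Of these the collagen gene Col1a2, named after its values were seen, stood 0.84 ± 0.33 higher with R882H than with empty vector and 1.36 ± 0.33 higher than with WT (SE, limma adjusted p = 0.521 and 0.470), without overlap in either. Col3a1, another collagen gene named in this way, was at least 1.85-fold higher with R882H than with WT, where it was detected on 0 of 3 arrays, and differed from empty vector by 0.33 ± 0.26. The part of these cells in the differences of the regulators was not tested.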

How the data were processed

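RNA of 9 samples was measured on Agilent 1-colour arrays, design 028005 with probes placed on build mm9, and quantified with Agilent Feature Extraction 10.10.1.1, per the file headers. The intensity that the authors deposited per spot was background-subtracted and detrended by that software on a linear scale, per the file headers, with calls for spots well above background or outliers. The authors' deposited value table holds log2 values by steps not given in the sources used here.

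Control spots and the 154 to 184 outlier spots per array were left out, no spot was saturated, and 53.4% to 64.8% of 55681 probes were well above background. The number of arrays limits the precision. Log2 intensities minus the array's 75th percentile were averaged per probe. Symbols came from RefSeq accessions (27235 probes with 1 symbol, 28446 with none). Probes detected, that is called well above background, in every array of 1 or more groups were kept, and the brightest per symbol gave 13120 genes. Groups were compared with limma 3.58.1 in R 4.3.3 (lmFit and eBayes on all 9 arrays, 6 residual and 2.81 prior degrees of freedom) with Benjamini-Hochberg adjustment over all genes, and 0.05 as threshold. The median SE was 0.23. On simulated data for R882H minus empty vector with 13120 genes, 37% of changes of 1 log2 unit and 80% of changes of 2 were called, with 8 false calls.

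The members and the gene lists were chosen with earlier results of these data known. Named beside the members were the 4 genes of smallest p per comparison in each of the 5 lists of partners, erythroid, megakaryocyte, myeloid and mast cell genes, and the 5 genes most like Gata1, Gata2 and Fli1. Ldb1, Rhd, the platelet genes Ppbp, Tubb1, Gp6 and P2ry12, and the cell type markers were named as list members regardless of p. Same-numbered replicates deviated together between WT and empty vector (r of 0.116, 0.222 and 0.325, all above the limit of 0.1). They did not in every pair between R882H and empty vector (0.0884, 0.198 and 0.279) or WT (0.0714, 0.137 and 0.239). Only the former were thus taken as paired, from the data alone. The main fit held no block in any comparison, so its values between WT and empty vector are unpaired. The replicate block was run as an alternative. Alternatives were 24 settings of background, scaling, filter, probe choice, blocks, weights and arrays left out. Normexp used the median pixel intensity, as no mean was given in the files used here.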

Additional observations from a re-analysis of the deposited data

How the results depend on the processing

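No gene passed the adjusted threshold with limma in any comparison under any of the 24 alternatives, and limits of depth were those of 9 arrays, with Klf1 and Gfi1b the dimmest members. Gata1, Gata2 and Tal1 kept their direction against empty vector under all 24, with an unadjusted p under 0.05 in 22, 16 and 20 of them. Their differences ran from 0.30 to 1.54, 0.07 to 0.87 and 0.19 to 1.31, and adjusted p-values from 0.245 to 0.996. Gata2 against WT kept its direction in 24, at 0.16 to 0.86. Klf1 had no value with only probes detected on all 9 arrays. The cause of the changes below was not tested.

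Genes with an unadjusted p under 0.05 between R882H and empty vector, 1184, were 1787 with the replicate block, 763 with slide as a fixed block, 1974 with array weights, 614 with the deposited columns as named and 673 to 1423 without single arrays (673 without R882H replicate 2, 707 without R882H replicate 1). Against WT, 1051 became 321 with the deposited columns as named (704 to 1272 without single arrays), and between WT and empty vector 780 became 1283 without WT replicate 3 (650 to 1283).

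Of the regulators, 3 had such a p against empty vector, 0 with slide as a fixed block or the deposited columns as named, and 1 to 5 without single arrays (5 without empty vector replicate 1, and 1 when empty vector replicate 3 or R882H replicate 2 was left out). Against WT, 1 became 2 with normexp, quantile normalization, cyclic loess, only probes detected on all 9 arrays, the mean of detected probes, the replicate block, array weights or number 3 left out, 3 with only the 2 groups compared, 0 with the deposited columns as named, and 1 to 3 without single arrays. Between WT and empty vector, 0 became 1 with normexp, the replicate block, which pairs these samples, or number 3 left out, and 0 to 2 without single arrays. The numbers of all genes with such a p, given above, also moved between settings, so these counts are not a result about the regulators alone. With the replicate block, as without it, no gene passed the adjusted threshold in any comparison.

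Signs turned as follows. With the deposited columns as named, R882H minus empty vector was 0.14 for Fli1, -0.11 for Gfi1b, -0.17 for Lmo2, 0.025 for Lyl1, -0.047 for Nfe2 and -0.094 for Zfpm1. R882H minus WT was -0.027 for Fli1, -0.091 for Lmo2, 0.0021 for Lyl1 and -0.17 for Nfe2, and WT minus empty vector was 0.17 for Fli1, -0.40 for Gfi1b, -0.074 for Lmo2 and -0.11 for Tal1. With the array median, R882H minus empty vector was -0.0055 for Lmo2 and -0.079 for Nfe2, R882H minus WT -0.083 and -0.017, and WT minus empty vector -0.034 for Lyl1 and -0.062 for Nfe2. Quantile normalization gave 0.0031 for Fli1 against empty vector. Normexp gave -0.0069 for Lmo2 against WT, and -0.011 for Gfi1b and -0.045 for Klf1 between WT and empty vector. Array weights gave -0.022 for Lmo2 against WT, and -0.10 for Gfi1b and -0.018 for Lyl1 between WT and empty vector. Slide as a fixed block gave 0.012 for Gata2 and -0.13 for Lyl1 there, and the deposited columns matched by value -0.0040 for Nfe2. Number 3 left out gave -0.10 for Lmo2 against WT, and -0.30 for Gfi1b and -0.036 for Lyl1 between WT and empty vector.

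Without single arrays, differences with a turned sign ran, against empty vector, from -0.16 to 0.0092 for Fli1 and -0.024 to 0.21 for Nfe2, and against WT from -0.16 to 0.11 for Lmo2 and -0.024 to 0.21 for Nfe2. Between WT and empty vector they ran from -0.39 to 0.055 for Gata2, -0.35 to 0.87 for Gfi1b, -0.62 to 1.17 for Klf1, -0.058 to 0.11 for Lyl1, -0.040 to 0.043 for Nfe2 and -0.79 to 0.15 for Zfpm1.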
